A study of Triticum aestivum with 45 samples.

Results

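Salicylic acid (SA) was compared with water in spikelets of 3 wheat genotypes considered as 1 experiment. The comparison used 18 of the 45 libraries of the series, all 9 sprayed with SA and all 9 sprayed with water, chosen by their treatment labels. The genotypes were the Canadian spring wheat cultivar Superb and 2 lines fixed by chromosome doubling of haploids. DH1 (GS-1-EM0040) descends from CIMMYT11 and DH2 (GS-1-EM0168) from CM82036, each crossed to Superb as the recurrent parent. Both lines therefore share part of their genome with Superb and with each other, and each is a single line. Spikes at anthesis received either 100 µM SA in water or water alone, and whole spikelets of 5 plants per treatment group were collected 8 h later. Each genotype and treatment gave 3 libraries. The labels do not say whether these 3 came from separate plants or pools, so p-values measure only the spread between these libraries, which may be technical.

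SA is a phenolic hormone of plant defence, made in greater amounts during infection by pathogens that feed on living tissue. In Arabidopsis it is perceived by NPR proteins, which act with TGA transcription factors on defence genes such as those of the pathogenesis-related proteins, and it often opposes jasmonate signalling. The flowering spikelet is the organ through which Fusarium head blight enters the wheat spike. The deposited table holds identifiers without gene names, and of its 110790 identifiers 0 were found in the gene table at hand. Genes are therefore given by identifier, without roles, and neither the pathway members nor the tissue label could be set against marker genes. The chromosome of a gene was read from its identifier, which follows the IWGSC RefSeq v1.0 pattern.

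Totals ran from 6685796 to 17043524 counts per library, with a median of 11233575 for SA and 9973722 for water. SA replicate 3 was the shallowest SA library in every genotype, at 7828299 counts in Superb, 6685796 in DH1 and 7632077 in DH2. Genes found almost only in DH1 before treatment stood at 103% to 113% of that level in the 6 DH1 libraries and at 1.5% to 2.12% in the other 12. Those of DH2 stood at 55.9% to 62.6% in the 6 DH2 libraries and at 0.333% to 0.623% in the other 12. The same rule found only 2 genes for Superb, which stood at 0% to 3.74% in its own 6 libraries and 0% to 12.1% in the other 12, so the presence of Superb material in libraries of DH1 or DH2 could not be examined. Within a treatment, same-numbered libraries tended to deviate together across genotypes. The correlation across genes of their deviations from the group mean was over 0.1 in 8 of 9 such pairs after SA (mean 0.25) and in 7 of 9 after water (mean 0.19). The 9 libraries of a treatment were thus not fully independent of each other.

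SA raised many genes by small amounts and lowered few. With genotype as a block, 459 of 58608 genes tested rose, 0.783% of them, and 33 fell, 0.0563% of them, in edgeR's quasi-likelihood test at a Benjamini-Hochberg adjusted p under 0.05. The median log2 fold change of the raised genes was 0.82, which is 1.76-fold, and the quartiles were 0.54 and 1.25. Only 182 of them changed by at least 1 on the log2 scale and 45 by at least 2, while 97 changed by less than 0.5. The lowered genes had a median log2 fold change of -0.45, with 20 of 33 under 0.5 in size and 3 of at least 1. The median over all genes tested was -0.01. An unadjusted p under 0.05 was found for 6280 genes, or 10.7% of those tested. In whole spikelets, fewer cells of a type and less RNA per cell cannot be told apart.

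With the counts of the 3 genotypes summed by replicate number, 3 SA sums against 3 water sums, edgeR called 77 genes raised and 0 lowered. This fit takes no credit for genotypes that deviate together. All 77 were among the 459, and their median log2 fold change in the 9 against 9 fit was 1.55, from 0.55 to 3.54. Leaving out replicate 1, 2 or 3 of every group gave 458, 267 and 171 raised and 28, 70 and 9 lowered genes, and a fit of all 45 libraries gave 287 and 18. Without replicate 1, 2 or 3, 316, 196 and 166 of the 459 raised genes were called again. Of the 33 lowered genes only 4, 3 and 7 were. The lowered genes of the fits without replicate 1 or 2 were thus mostly others, while 7 of the 9 without replicate 3 were among the 33. The count of raised genes stayed within 1.5 times of 459 when any single library was left out, at 311 to 575. The count of lowered genes moved by more than that without DH1 SA replicate 3 (18 genes), DH1 water replicate 1 (18), DH2 SA replicate 1 (57), DH2 SA replicate 3 (16), DH2 water replicates 1 and 3 (15 and 21), Superb SA replicate 3 (15) and Superb water replicates 1 and 2 (17 and 18).

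**Figure D1:**
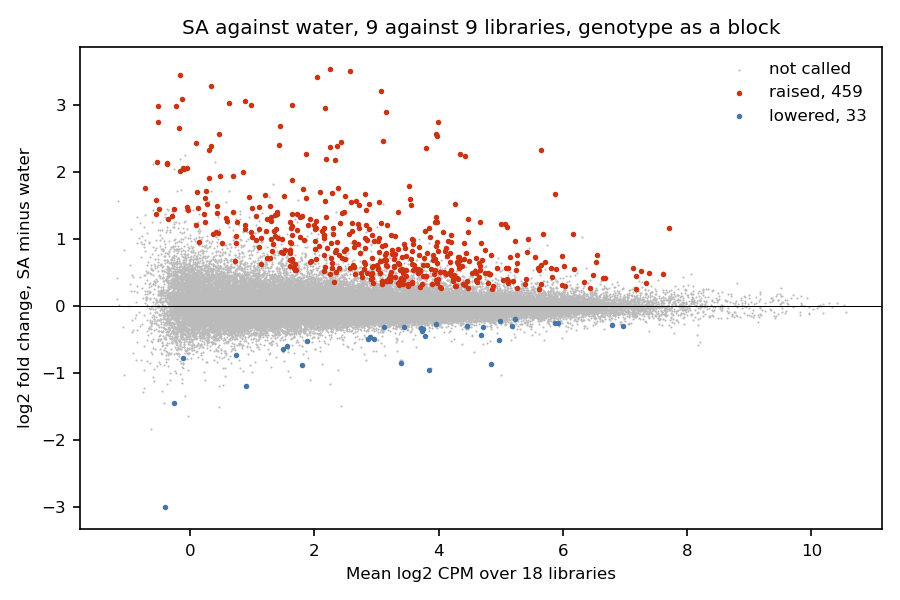
Log2 fold change of SA against water for each gene tested (vertical axis) by its mean log2 CPM over the 18 libraries (horizontal axis), with 459 raised genes in red, 33 lowered in blue and the rest in grey. Called genes lie mostly above 0, and the abundant ones among them changed by small amounts.

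The balance of rises over falls was found at every level of expression. Among 6454 genes at 32 CPM or more after water, 34 rose (0.527%) with a median log2 fold change of 0.48, and 9 fell (0.139%) with a median of -0.29. At 8 to 32 CPM 143 of 18900 rose (0.757%) and 14 fell (0.0741%), with medians of 0.55 and -0.37. At 2 to 8 CPM 157 of 20348 rose (0.772%) and 6 fell, and at 0.5 to 2 CPM 89 of 12495 rose (0.712%) and 4 fell. Below 0.5 CPM 36 of 411 rose and 0 fell, but genes so low after water could enter the test by being higher after SA. How many entered in that way was not counted, and genes in the lower part of the 0.5 to 2 CPM range may have done so too. The 423 raised genes of at least 0.5 CPM after water had a median log2 fold change of 0.76.

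The largest rises were of genes close to silence after water. The rule for naming genes asked for a minimum mean level over the 18 libraries. A gene so low after water could meet it only by being much higher after SA. The link between a low water level and a large rise, and the gap between the libraries, are therefore partly fixed by the choice. The filter on counts may also have favoured such genes, which was not examined. TraesCS1B01G245700 on 1B stood at 0.947, 0.502 and 0.67 CPM in the 3 water libraries of Superb and at 6.75, 4.78 and 7.95 CPM in its 3 SA libraries. In DH1 the water libraries stood at 0.373, 0.198 and 0.199 CPM and the SA libraries at 10.7, 4.36 and 15 CPM. In DH2 they stood at 0.666, 0.265 and 1.92 CPM after water and at 5.64, 6.63 and 14.7 CPM after SA. The lowest SA library, at 4.36 CPM, lay above the highest water library, at 1.92 CPM, over all genotypes. The log2 fold change was 3.54 (SE 0.36, edgeR adjusted p = 7.43e-06), or 11.6-fold, and the gene rose in all 34 alternative fits.

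TraesCS5B01G224000 on 5B stood at 1.89, 0.802 and 1.01 CPM after water and at 9.07, 7.13 and 12.9 CPM after SA in Superb. In DH1 the values were 0.559, 0.462 and 0.398 CPM after water and 9.75, 5.77 and 17.7 CPM after SA, and in DH2 they were 1.09, 0.796 and 0.959 CPM and 4.58, 8.84 and 19.9 CPM. Again the highest water library, at 1.89 CPM, lay below the lowest SA library, at 4.58 CPM. Its log2 fold change was 3.50 (SE 0.33, edgeR adjusted p = 3.19e-06), and it too rose in all 34 alternative fits. For both genes SA replicate 3 was the highest SA library in each genotype.

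Among falls at a mean log2 CPM of at least 1, the largest was that of TraesCS4D01G329500 on 4D. It stood at 22.9 ± 4.12 CPM after water and 11.6 ± 2.64 CPM after SA in Superb, at 14.5 ± 6.41 and 9.08 ± 3.34 CPM in DH1, and at 15.5 ± 6.35 and 7.44 ± 3.45 CPM in DH2 (SD, n = 3 each). The libraries overlapped in DH1 and DH2. The log2 fold change of -0.95 (SE 0.22, edgeR adjusted p = 0.0368) was not called in 20 of 34 alternative fits. The call was lost without any of DH1 SA replicate 1, DH1 water replicates 1 and 2, DH2 SA replicate 3, DH2 water replicates 1 and 2, Superb SA replicates 1 and 2, and Superb water replicates 1 and 2, with an adjusted p of at most 0.09.

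TraesCS5A01G534100 on 5A stood at 4.99 ± 1.1 CPM after water and 2.55 ± 0.769 CPM after SA in Superb, at 5.15 ± 2.52 and 2.86 ± 0.43 CPM in DH1, and at 2.26 ± 0.0696 and 1.33 ± 0.178 CPM in DH2. Its log2 fold change was -0.88 (SE 0.17, edgeR adjusted p = 0.0113). In Superb and DH2 the 3 SA libraries lay below the 3 water libraries, while in DH1 the highest SA library, at 3.13 CPM, lay above the lowest water library, at 3.07 CPM. No single library ended this call, but it was lost in 6 of 34 alternative fits, with edgeR adjusted p of up to 0.202. The summed fit was 1 of these, with an adjusted p of 0.111.

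**Figure D2:**
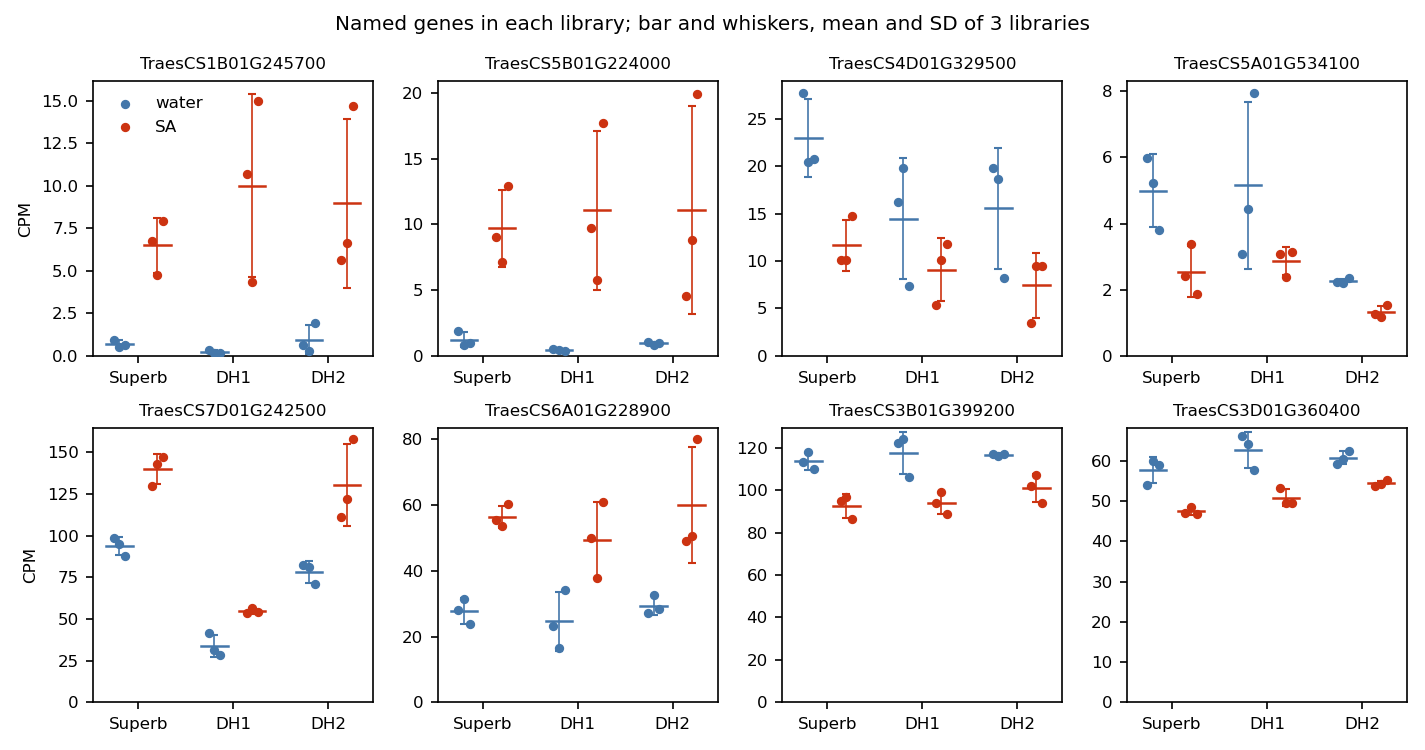
CPM of the 8 named genes in each of the 18 libraries (points), by genotype and treatment, with the mean and SD of 3 libraries. Within each genotype SA libraries lie above water libraries without overlap for the 4 raised genes. Of the 4 lowered genes TraesCS4D01G329500 overlaps in DH1 and DH2 and TraesCS5A01G534100 in DH1.

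Only a small part of these changes was called within a genotype. The tests shared an estimate of the spread over all 18 libraries, so a library of 1 genotype could move the calls of another. In edgeR's test within a genotype, 12 genes were called in Superb (0.0205% of genes tested), 134 in DH1 (0.229%) and 68 in DH2 (0.116%), of which 0, 2 and 1 were lower after SA. All 12 calls in Superb, 80.6% of those in DH1 and 98.5% of those in DH2 were also called in the same direction by the fit over all genotypes, which included the same libraries. They made up 2.44%, 22% and 13.6% of its calls. Of the 459 raised genes, 333 were called in no genotype alone, 73 in 1, 46 in 2 and 7 in all 3. The 7 had log2 fold changes of 1.52 to 2.99, and the 333 a median of 0.68, or 1.6-fold. The median standard error of a log2 fold change was 0.21 in Superb, 0.21 in DH1, 0.2 in DH2 and 0.12 over the 3 together.

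Single libraries moved the counts within a genotype by more than 1.5 times. In Superb 5 genes were called without SA replicate 1, 5 without water replicate 1, 3 without water replicate 2 and 21 without DH1 water replicate 3. In DH1 the count was 62 without SA replicate 2 and 86 without SA replicate 3, while leaving out water replicate 1, 2 or 3 gave 70, 68 or 55. In DH2 the removal of SA replicate 2 or 3 left 36 or 27 calls, and that of water replicate 1, 2 or 3 left 14, 34 or 37.

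Several genes called by the fit over all genotypes and in none alone were abundant. TraesCS7D01G242500 on 7D, with the smallest p among those raised, had levels of 98.4, 95.1 and 87.9 CPM in the water libraries of Superb and of 130, 143 and 147 CPM in its SA libraries. In DH1 it stood at 41.5, 31.7 and 28.3 CPM after water and at 53.4, 56.8 and 54.5 CPM after SA, and in DH2 at 82.7, 81.2 and 70.8 CPM and at 111, 122 and 158 CPM. Every SA library lay above every water library of its genotype. Its level in DH1 was below that in the other genotypes under both sprays, so that the 9 SA and 9 water libraries overlapped before the block for genotype. The log2 fold change was 0.65 (SE 0.08, edgeR adjusted p = 3.87e-05), and within a genotype 0.57, 0.69 and 0.71 in Superb, DH1 and DH2, with adjusted p of 0.505, 0.0523 and 0.0521. In the summed fit its adjusted p was 0.0789.

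TraesCS6A01G228900 on 6A stood at 27.7 ± 3.86 CPM after water and 56.4 ± 3.34 CPM after SA in Superb, at 24.6 ± 8.87 and 49.4 ± 11.5 CPM in DH1, and at 29.4 ± 2.92 and 59.9 ± 17.5 CPM in DH2. Over all genotypes the water libraries reached at most 34.1 CPM and the SA libraries stood at 37.7 CPM or more. The rise of 1.00 on the log2 scale (SE 0.13, edgeR adjusted p = 9.27e-05) had nearly the same size in each genotype, at 1.01, 0.99 and 1.00. It was called in all 34 alternative fits.

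The falls found in this way were small, 1.22-fold and 1.2-fold in the genes with the smallest p. TraesCS3B01G399200 on 3B stood at 113, 118 and 110 CPM after water and 94.8, 96.7 and 86.2 CPM after SA in Superb, at 122, 124 and 106 CPM and 93.8, 98.9 and 88.6 CPM in DH1, and at 117, 116 and 117 CPM and 102, 107 and 94 CPM in DH2. The SA libraries lay below the water libraries in each genotype. The log2 fold change was -0.29 (SE 0.05, edgeR adjusted p = 0.00455), and the counts behind these values were 595 to 2196 reads per library. TraesCS3D01G360400 on 3D stood at 57.6 ± 3.27 CPM after water and 47.5 ± 0.943 CPM after SA in Superb, at 62.7 ± 4.45 and 50.8 ± 2.06 CPM in DH1, and at 60.7 ± 1.63 and 54.4 ± 0.699 CPM in DH2, likewise without overlap. Its log2 fold change was -0.26 (SE 0.05, edgeR adjusted p = 0.0052). Neither gene lost its call without any single library. Each was called in 27 of 34 alternative fits, and the summed fit gave adjusted p of 0.666 and 0.572.

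The direction was the same in each genotype for nearly all called genes. The log2 fold change had the same sign in all 3 genotypes for 454 of 459 raised and all 33 lowered genes, against 36.3% of all genes tested. In 197 of the raised genes every SA library lay above every water library of its genotype, in each of the 3 genotypes, and in 8 of the lowered genes every SA library lay below. Over all genes tested these orders were found for 0.37% and 0.0375%. Since these genes were called on the same libraries, the counts describe the calls and do not test them.

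The genes raised in 2 genotypes were also higher after SA in the genotype that had no part in choosing them. Genes raised over DH1 and DH2 numbered 267, or 0.457% of those tested there, and 261 of them (97.8%) had a positive log2 fold change in Superb, against 50.4% of all genes. Their median log2 fold change in Superb was 0.69. Of the 197 genes raised over Superb and DH2 (0.341%), 192 (97.5%) were higher after SA in DH1, with a median of 1.25, against 49.4% of all genes. All 139 genes raised over Superb and DH1 (0.245%) were higher after SA in DH2, with a median of 1.13, against 47.2% of all genes. The medians over all genes were 0.00, 0.00 and -0.01. These libraries took no part in the choice, but those with the same replicate number deviated together across genotypes, so they are no fully separate repeat.

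**Figure D3:**
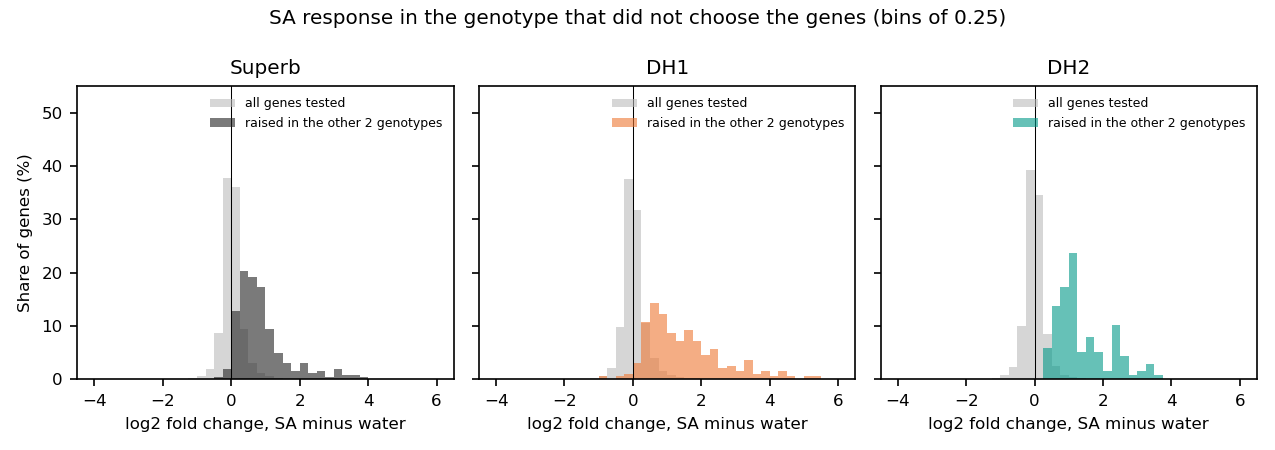
Distribution of log2 fold changes of SA against water in each genotype, for all genes tested (light grey) and for the genes raised in the other genotypes (dark grey, orange and green), as a share of each set in bins of 0.25. The raised sets lie almost entirely above 0, with medians of 0.69 in Superb, 1.25 in DH1 and 1.13 in DH2.

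The share of all counts held by these genes showed the same in single libraries. In Superb the 267 genes held 0.403%, 0.337% and 0.377% of counts in the water libraries and 0.545%, 0.553% and 0.582% in the SA libraries. The 197 genes held 0.21%, 0.201% and 0.165% in the water libraries of DH1 and 0.38%, 0.405% and 0.388% in its SA libraries. The 139 genes held 0.184%, 0.18% and 0.198% in DH2 after water and 0.313%, 0.369% and 0.427% after SA. No SA library overlapped with a water library of its genotype. The ratio of the means was 1.5 in Superb, 2.04 in DH1 and 1.97 in DH2, each for a different set of genes.

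**Figure D4:**
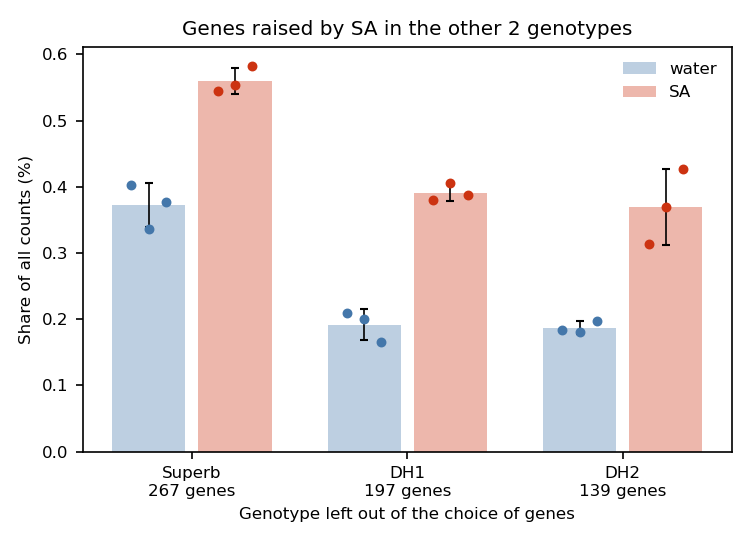
Share of all counts (percent, vertical axis) held in each genotype by the genes raised in the other genotypes, after water (blue) and SA (red), with points for libraries and bars and whiskers for the mean and SD of 3. SA libraries stand at 0.313% to 0.582% and lie above the water libraries in each genotype.

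No gene was called for a difference in its SA response between genotypes. The edgeR test with 2 degrees of freedom called 0 of 58608 genes (0%), with 1400 genes at an unadjusted p under 0.05, or 2.39% of those tested, and DESeq2's likelihood ratio test called 2. The median log2 fold change of the 459 raised genes was 0.64 in Superb, 0.91 in DH1 and 0.83 in DH2, and that of the 33 lowered genes was -0.44, -0.45 and -0.40. Of the 459 raised genes, 45 (9.8%) had an unadjusted p under 0.05 for the difference in edgeR's test, against 2.39% of all genes tested. The share over all genes lay below the 5% expected by chance, so this test may miss differences. TraesCS1B01G245700, with log2 fold changes of 3.14 (SE 0.62) in Superb, 5.19 (SE 0.69) in DH1 and 3.00 (SE 0.51) in DH2, had an unadjusted p of 0.118 for the difference in edgeR's test across all genes, and an adjusted p of 1. The lower number of calls in Superb is therefore not shown to be a weaker response of single genes, nor do these p-values show that the genotypes respond alike.

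The raised genes lay on all 21 chromosomes. Chromosome 2D had the most, with 39 of 3256 genes tested (1.2%), followed by 2B with 28 of 3124 (0.896%), and 1D held 26 of 2551 (1.02%). The lowest shares were those of 2A, with 17 of 3171 (0.536%), and 5A, with 17 of 3080 (0.552%). By subgenome 0.659% of tested genes rose on A, 0.755% on B and 0.923% on D, with 128, 144 and 180 genes, and 0.0772%, 0.0629% and 0.0308% fell. These shares are descriptions. Reads of homoeologous and of tandemly repeated genes may be shared between copies, so neighbouring or homoeologous calls are not separate observations.

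**Figure D5:**
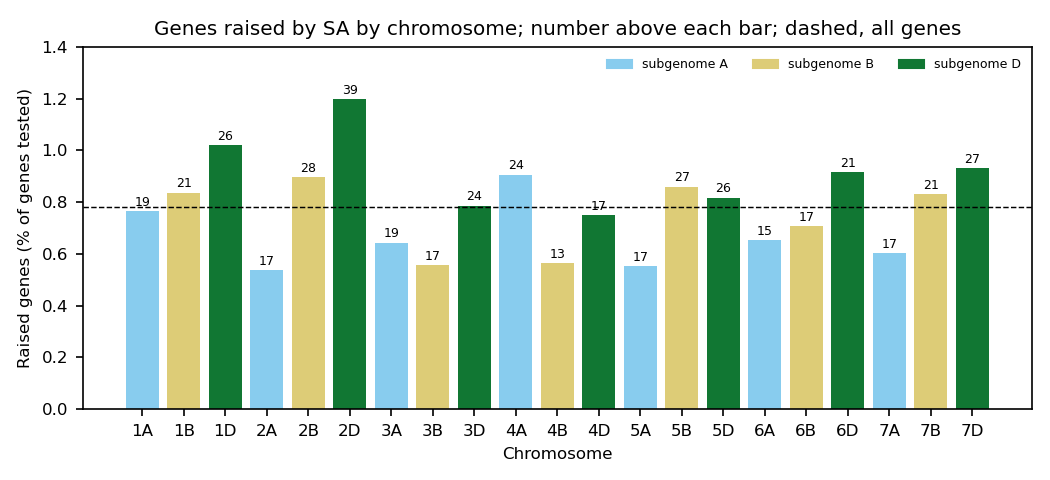
Share of tested genes raised by SA on each chromosome (percent, bars coloured by subgenome) with the number of raised genes above each bar and the share over all genes, 0.783%, as a dashed line. Bars run from 0.536% on 2A to 1.2% on 2D.

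Some raised genes were neighbours. Among tested genes in the order of their identifiers, 65 of the 452 raised genes placed on chromosomes (14.4%) lay directly beside another, in 28 runs, while 1.53% of all tested genes lay beside a raised one. The longest run held 8 genes on 2D, 91.6% of the way along the tested genes of that chromosome, and the next held 4 genes on 2B, 92.8% along. The log2 fold changes were 0.76 to 1.53 in the first and 0.71 to 1.49 in the second. The summed level of the 8 genes of 2D was 140 ± 25.7 CPM after water and 223 ± 18.1 CPM after SA in Superb, 78.5 ± 15.8 and 212 ± 30 CPM in DH1, and 124 ± 16.6 and 271 ± 59.5 CPM in DH2. The lowest SA library lay above the highest water library in each genotype. The 4 genes of 2B summed to 19.4 ± 2.64 CPM after water and 28.8 ± 2.26 CPM after SA in Superb. In DH1 their sums were 12.2 ± 1.85 and 27.4 ± 2.12 CPM, and in DH2 17.5 ± 0.781 and 35.3 ± 9.51 CPM. In 5 cases a run on 1 chromosome lay within 2% of the gene order of a run on another of the same homoeologous group, on 2B and 2D in 2 cases, and on 2A and 2B, 5B and 5D, and 6B and 6D. Of the 28 runs 8 lay on group 2, and how many such pairs would arise by chance was not examined. The files do not say which genes are homoeologs, and the runs were picked after their values were seen.

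The levels of the called genes under the other conditions were set beside those after SA. The 459 raised genes had a median level of 4.42 CPM before treatment, 5.63 CPM after water, 10 CPM after SA, 5.55 CPM after methyl jasmonate (MeJA) and 6.12 CPM after ethephon, a compound that releases ethylene. The medians over all genes tested lay between 6.26 and 6.51 CPM. The 33 lowered genes had a median of 14 CPM after water, 11 CPM after SA, 12.1 CPM after ethephon, 8.86 CPM after MeJA and 8.66 CPM before treatment. All sprays were compared with the same water libraries, and the called genes were chosen on those libraries, so the other fold changes are not independent of the SA result. In 2 ethephon libraries genes of another line stood out: those of DH1 were at 26% of their DH1 level in Superb replicate 1, and those of DH2 at 10.6% in DH1 replicate 1. Without both, the ethephon medians were 6.3 CPM for the raised and 11.9 CPM for the lowered genes, and the values below are given for all 9 ethephon libraries and for the other 7.

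For the genes with the largest rises, the levels after the other sprays were close to those after water. TraesCS1B01G245700 stood at 0.637 ± 0.542 CPM after water and 8.5 ± 4.06 CPM after SA over 9 libraries each, and at 0.455 ± 0.35 CPM after MeJA, 0.759 ± 0.471 CPM after ethephon (0.883 ± 0.464 CPM over 7) and 0.218 ± 0.25 CPM before treatment. The highest of these other libraries, at 1.37 CPM, lay below the lowest SA library, at 4.36 CPM. TraesCS5B01G224000 stood at 0.96 ± 0.451 CPM after MeJA, 0.686 ± 0.342 CPM after ethephon (0.77 ± 0.344 CPM over 7) and 0.586 ± 0.379 CPM before treatment, against 10.6 ± 5.24 CPM after SA. The 431 raised genes tested after MeJA had a median log2 fold change against water of -0.01, against -0.04 over all genes tested. Both named abundant raised genes, however, were much lower after MeJA. TraesCS6A01G228900 stood at 1.5 ± 1.24 CPM after MeJA, with a log2 fold change against water of -4.22 (SE 0.28, adjusted p = 3.11e-10 in edgeR's test), and TraesCS7D01G242500 at 11.5 ± 6.29 CPM (-2.69, SE 0.12, adjusted p = 1.65e-12). After ethephon their log2 fold changes were -0.26 and -0.20, with adjusted p of 0.541 and 0.524, and over 7 libraries they were -0.26 and -0.15, with adjusted p of 0.649 and 0.707.

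The named lowered genes also had negative log2 fold changes after MeJA and after ethephon, against the same water libraries. After MeJA TraesCS3B01G399200 stood at 45.5 ± 4.64 CPM (-1.37 on the log2 scale, SE 0.07, adjusted p = 3.33e-12 in edgeR's test), TraesCS3D01G360400 at 22.8 ± 2.59 CPM (-1.42, SE 0.07, adjusted p = 4e-12) and TraesCS4D01G329500 at 4.5 ± 4.04 CPM (-2.00, SE 0.35, adjusted p = 9.17e-05). TraesCS5A01G534100 had a log2 fold change of -0.79 after MeJA (SE 0.21, adjusted p = 0.00439), beside -0.88 after SA. Before treatment TraesCS3B01G399200 stood at 46.1 ± 2.91 CPM and TraesCS3D01G360400 at 34.8 ± 2.82 CPM, below their levels of 95.8 ± 6.43 and 50.9 ± 3.2 CPM at 8 h after SA. After ethephon TraesCS4D01G329500 had a log2 fold change of -0.95 (SE 0.22, adjusted p = 0.246 in edgeR's test), and of -1.14 over 7 libraries (adjusted p = 0.324), beside -0.95 after SA. Its mean levels were 17.6 ± 6.36 CPM after water, 9.37 ± 3.29 CPM after SA and 8.85 ± 3.54 CPM after ethephon (7.81 ± 2.7 CPM over 7). Before treatment its mean was 8.18 ± 4.78 CPM, so that the mean after water stood above the rest. In DH2, however, its untreated libraries stood at 12.7 ± 5.98 CPM and overlapped with the water libraries, at 15.5 ± 6.35 CPM. TraesCS5A01G534100 had a log2 fold change of -0.72 after ethephon (adjusted p = 0.258) and of -0.81 over 7 libraries (adjusted p = 0.356). For TraesCS3B01G399200 and TraesCS3D01G360400 the values were -0.05 and -0.12 (adjusted p of 0.762 and 0.456), and -0.04 and -0.10 over 7 libraries (adjusted p of 0.874 and 0.64). The differences between the responses to SA and to the other sprays were not tested.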

How the data were processed

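The authors deposited raw read counts per gene for 45 libraries, as whole numbers with unequal totals and no scaling. Per the submitters' processing notes, STAR 2.5.3a and DESeq2 were used, without a stated role. How reads were assigned to genes, by which program, with or without strand, and with what done about multi-mapping reads, is not given in the sources used here. Reads of near-identical copies, and of overlapping or antisense genes, may therefore have been counted to the wrong gene.

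Groups were read from the labels. The fits used edgeR 4.0.16 under R 4.3.3. The filter filterByExpr, applied to the 6 groups, kept 58608 genes holding 99.5% of the counts of the 18 libraries, and 22021 genes had no count in them. Libraries were scaled by TMM (factors 0.96 to 1.06). The model glmQLFit (legacy = FALSE) with genotype and treatment had 14 residual degrees of freedom, and glmQLFTest gave p-values, adjusted by Benjamini-Hochberg over all genes tested. Responses within a genotype and their difference came from a model with a mean per genotype and treatment (12 residual degrees of freedom). Standard errors were obtained as |log2 fold change| / √F. Levels are CPM computed from the deposited counts with TMM factors over all 45 libraries, as mean ± SD. Replicate pairs differed by more than sampling noise (chi-square per degree of freedom 2.65 to 8.6 over 18 pairs), so none was taken as a duplicate. The steps were tested on simulated data with known changes.

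Named genes are the 2 with the highest and the 2 with the lowest log2 fold change among calls whose mean log2 CPM reached 1, and, among genes called in no genotype alone, the 2 raised and 2 lowered with the smallest p. The comparison and this rule were chosen with earlier results of these data known. Alternatives were another scaling, other filters, DESeq2 1.42.0, all 45 libraries, replicate blocks, sums by replicate number, and leaving out libraries, replicate numbers or genotypes.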

Additional observations from a re-analysis of the deposited data

How the results depend on the processing

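Under the alternatives none of 272 log2 fold changes of named genes and none of 60 ratios of shares changed direction, and 231 and 31 kept their call or stayed near the reported value. Of 180 counts of calls, which have no direction, 119 stayed within 1.5 times of the reported count. The count of 459 raised genes became 287 in the fit of all 45 libraries, 285 without Superb and DH1 ethephon replicate 1 (added after seeing the data, since genes of another line stood out in both), 77 in sums over genotypes, and 267, 197 and 139 without Superb, DH1 and DH2. The count of 33 lowered genes became 18, 15, 0, 3, 2 and 2 in the same fits, 18 with a contrast averaged over genotypes and 77 with DESeq2. Without Superb, DH1 and DH2, 243, 194 and 139 of the 459 raised genes and 2, 2 and 0 of the 33 lowered genes were called again. The fits without a genotype, of 12 libraries, and the sums, 3 against 3, hold fewer samples by construction; the cause of the other moves was not tested. With DESeq2 39 genes were called in Superb, 268 in DH1, 120 in DH2 and 2 for the difference between genotypes. With all 45 libraries 66 were called in DH1 and 31 in DH2, and 68 and 33 without the ethephon libraries named. With sets chosen at an unadjusted p under 0.001 the ratio of shares was 1.39 in Superb and 1.66 in DH1. Leaving out a library, or a replicate number in every group, gave 171 to 575 raised and 9 to 70 lowered genes, 0 to 21 calls in Superb, 39 to 167 in DH1, 14 to 102 in DH2, and 0 for the difference. The ratio of shares was 1.44 to 1.74 in Superb, 1.84 to 2.34 in DH1 and 1.82 to 2.29 in DH2 without a single library.

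Whether replicate numbers pair SA with water libraries was not settled, since only 9 such pairs exist. Deviations of the same genotype and number correlated at -0.20 to 0.35 (mean 0.02, over 0.1 in 3 of 9 pairs), and 5 of 18 libraries correlated best with their own number. A replicate block of 3 numbers gave 617 raised and 86 lowered genes and 29 calls in Superb, and a replicate block of 9 pairs gave 518 and 50. Both blocks thus gave more calls than the 459 and 33 without a block. At 6685796 counts in the shallowest library, changes of genes under 0.5 CPM rest on a few reads each.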

Other observations

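The size of the response varied between SA libraries of a genotype. The median log2 difference of the 459 raised genes from the mean water level of the genotype, with a pseudocount of 0.5 CPM, was 0.50, 0.62 and 0.69 in SA replicates 1, 2 and 3 of Superb. It was 0.67, 0.94 and 0.83 in those of DH1 and 0.51, 0.81 and 0.99 in those of DH2. SA replicate 1 was the lowest in each genotype, and the water libraries lay between -0.20 and 0.12. The medians over all genes tested lay between -0.01 and 0.03 in these libraries. For the 33 lowered genes the medians were -0.31 to -0.49 in the 9 SA libraries and -0.07 to 0.06 in the water libraries. SA replicate 3 had the fewest counts in each genotype, and its part in these values was not tested.

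A run of 3 adjacent raised genes on 6B stood at 9 ± 3.1 CPM in sum after water and 21.4 ± 8.14 CPM after SA in Superb, at 5.35 ± 1.75 and 22.1 ± 5.51 CPM in DH1, and at 8.23 ± 2.58 and 21.5 ± 9.07 CPM in DH2 (SD, n = 3 each). The libraries of each genotype did not overlap between the treatments. After ethephon the sums were 8.04 ± 1.83, 7.86 ± 2.61 and 5.85 ± 1.27 CPM (without the libraries in which another line's genes stood out, 6.21 and 9.86 CPM in Superb and 9.08 and 9.63 CPM in DH1), and after MeJA they were 4.62 ± 2.11, 10.8 ± 2.79 and 3.75 ± 0.317 CPM, in Superb, DH1 and DH2. The run was picked after its values were seen.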
